A study of Mus musculus with 9 samples.

Results

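A set of 10 imprinted genes of the growth network was examined in RNA-Seq libraries of osteoblasts and endothelial cells (ECs). Its genes were taken by symbol, with earlier results of these data known, as H19, Meg3, Mest, Peg3, Dlk1, Plagl1, Grb10, Ndn, Zim1, and Sgce, and all 10 were found among the 50686 genes of the deposited count table. The control group was the mouse calvarial osteoblast line MC3T3-E1 without the compound. The SB216763 group was the same line treated with 10 μM SB216763, an inhibitor of the GSK3 kinases, for 14 days. The EC group was untreated mouse pulmonary ECs, which the study's supplement describes as isolated by FACS. Each group had n = 3 libraries, and none of the sources used here said whether these came from separate cultures or animals, so the p-values measure only the spread between these libraries. MC3T3-E1 is a single established line, the time in culture of the control cells was not given, and the protocol text of the sample labels gave the 14-day treatment for every sample, so the groups were taken from titles and treatment entries.

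Imprinted genes are transcribed mainly from the chromosome copy inherited from one parent, which is set by DNA methylation at a control region laid down in the germ line. Many of them regulate fetal growth, and a coexpressed set that is high in growing tissues and declines after birth has been named the imprinted gene network. Plagl1 encodes a zinc finger factor that is known to activate other genes of this set. Of the 10 genes, 6 are known as expressed from the paternal copy (Mest, Peg3, Dlk1, Plagl1, Ndn, and Sgce) and 4 from the maternal copy in most tissues (H19, Meg3, Grb10, and Zim1). The counts do not separate the parental copies, so levels are the sum of both.

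The libraries held 30990107 to 68946333 counts, and 2 of the 3 control libraries were the deepest. Levels are given as CPM, the count scaled to the depth of the library, after TMM normalization in edgeR. A count of 3 corresponded to between 0.0473 and 0.104 CPM, treated as the limit of what the depth could show (counting error only). The summed level of 8 osteoblast markers was 43926 to 59353 CPM in the control libraries, 8073 to 8345 CPM in the SB216763 libraries, and 45.1 to 64.5 CPM in the ECs. The 10 endothelial markers summed to 3.92 to 4.79, 5.08 to 5.56, and 7093 to 7297 CPM in the same order, with Cdh5 at a mean of 0.585, 0.599, and 1794 CPM and Pecam1 at 0.759, 0.788, and 1756 CPM. These defining markers of ECs were thus close to the control level in the treated cells. The 10 fibroblast and mural markers summed to 8418 to 9128, 1746 to 1822, and 46.2 to 49.8 CPM. The 8 blood cell markers stayed at or below 1.99 CPM in the osteoblast libraries and at 45.8 to 47.7 CPM in the ECs, where Cd68 gave a mean of 46.6 CPM and Ptprc 0.0915 CPM. The 7 epithelial markers summed to at most 0.347 CPM in any library, with Epcam at 0 in all of them.

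The 10 genes fell into a group that was well expressed and a group at or near the limit of the depth. Grb10, Mest, Plagl1, and Sgce were present in all 9 libraries, Peg3 was present in the ECs, and H19 was detected at a low level in the control cells and ECs. Dlk1, Meg3, Ndn, and Zim1 had 0 to 2 counts in every library. Together the 10 genes made up 0.116% to 0.123% of all counts in the control libraries, 0.0389% to 0.0408% in the SB216763 libraries, and 0.0955% to 0.0961% in the ECs. Grb10 alone gave between 49.1% and 58.1% of these counts.

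**Figure D1:**
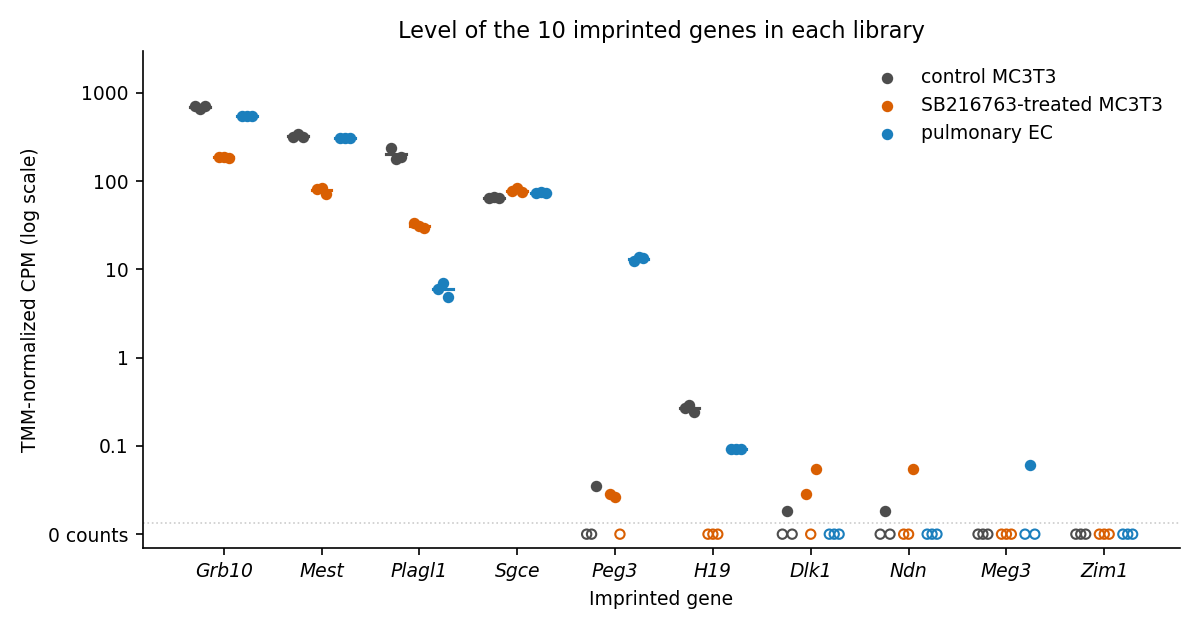
TMM-normalized CPM of each of the 10 imprinted genes in each library, on a log scale. Points are libraries, short lines are group means where all 3 libraries had counts, and open circles below the dotted line are libraries with 0 counts. Grb10, Mest, and Plagl1 were lower in every SB216763 library than in every control library, and Peg3 rose clear of the limit only in the 3 EC libraries.

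To compare levels between genes, CPM was divided by the length of the joined exons of each gene in GENCODE M21. The annotation behind the counts was not given, and the transcripts in use were not determined. The spread between libraries leaves out this uncertainty of length, so the order of genes with close levels, such as Mest and Grb10, depends on the lengths used. On this scale of CPM per kb, Mest and Grb10 led in all 3 groups. In the control cells Mest reached 82.4 ± 3.13 CPM per kb and Grb10 76.8 ± 3.30 CPM per kb (SD, n = 3), and the libraries of one gene ran from 80.0 to 85.9 and of the other from 73.0 to 78.9, without overlap. Plagl1 followed at 25.9 ± 3.90 CPM per kb and Sgce at 6.11 ± 0.137 CPM per kb. In the SB216763 cells Grb10 was at 20.6 ± 0.274 and Mest at 19.97 ± 1.59 CPM per kb, where the libraries of both genes overlapped. Sgce came next at 7.38 ± 0.415 and Plagl1 after it at 4.0 ± 0.293 CPM per kb, so Sgce and Plagl1 had changed places. In the ECs the order was Mest at 77.5 ± 0.197, Grb10 at 60.3 ± 0.432, Sgce at 6.97 ± 0.182, Peg3 at 0.993 ± 0.0598, and Plagl1 at 0.760 ± 0.132 CPM per kb, with no overlap between neighbors in this order.

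Comparing SB216763-treated with control osteoblasts, Plagl1 and Mest fell past the threshold of the study, Grb10 fell by slightly less than that threshold, and Sgce rose by a small amount. The threshold was a log2 fold change of 2 or more in either direction, which is a fold of 4, with an FDR under 0.01 by edgeR's quasi-likelihood test after Benjamini-Hochberg correction over the 15531 genes tested. Of the 10 imprinted genes, 5 passed the filter on low counts, 1 of them (Peg3) only through the ECs. Of these, 2 were lower and 0 higher past the threshold, beside 5.84% lower and 3.81% higher of all genes tested. At an FDR under 0.01 with any fold, 3 were lower and 1 higher, beside 32.0% and 32.9% of all genes. The median log2 fold change of the 5 genes was -1.90, with Peg3 included although it was at the limit in both groups, and that of all genes was 0.01. The study used this comparison to ask how SB216763 altered the transcript profile of the osteoblasts.

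Plagl1 (ENSMUSG00000019817.18), on chromosome 10 (13060504 to 13131694, plus strand, GENCODE M21 on GRCm38), had 237, 180, and 190 CPM in the control libraries, 33.8, 30.7, and 29.4 CPM in the SB216763 libraries, and 5.93, 6.97, and 4.91 CPM in the ECs. The 3 groups did not overlap, with the control libraries highest and the ECs lowest. Its log2 fold change in treated against control cells was -2.69 (SE 0.10, FDR 1.05e-12 by edgeR's quasi-likelihood test), a 6.47-fold lower level. The mean fell from 202 ± 30.5 to 31.3 ± 2.29 CPM (SD, n = 3). These values rest on 15050, 9886, and 5471 control counts and 1180, 1179, and 1078 treated counts.

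Mest (ENSMUSG00000051855.15), also known as Peg1, encodes a protein of the alpha/beta hydrolase fold and lies on chromosome 6 (30723547 to 30748465, plus strand). Its level was 316, 339, and 320 CPM in the control libraries, 81.6, 83.2, and 71.6 CPM in the treated ones, and 306, 305, and 307 CPM in the ECs. The treated libraries all lay far below the others, and SB216763 replicate 3 was the lowest of them. The control mean of 325 ± 12.4 CPM compares with 78.8 ± 6.29 CPM after treatment, at a log2 fold change of -2.04 (SE 0.06, FDR 2.30e-14 by edgeR's quasi-likelihood test). This value sat at the fold threshold. Without SB216763 replicate 3 it was -1.98, and with scaling by library size only it was -1.84, so that the call past a fold of 4 was lost while the FDR stayed under 0.01. The exons of Mest share 912 bases, 23.1% of their length, with exons of Copg2 on the opposite strand. The strand setting of the counting was not given in the sources used here, so reads from this shared stretch cannot be told apart. Copg2, which encodes a coat protein of transport vesicles, went from 134 ± 2.72 to 91.8 ± 3.77 CPM (log2 fold change -0.54, FDR 2.13e-08 by edgeR's quasi-likelihood test).

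Grb10 (ENSMUSG00000020176.17), an adaptor that binds the insulin and IGF1 receptors and restrains their signaling, lies on chromosome 11 (11930508 to 12038683, minus strand). It had 717, 664, and 714 CPM in the control libraries, 187, 190, and 185 CPM in the SB216763 libraries, and 544, 550, and 551 CPM in the ECs. The 3 treated libraries differed by only a few CPM and lay below every other library. The mean went from 698 ± 30.0 to 187 ± 2.49 CPM, a log2 fold change of -1.90 (SE 0.05, FDR 7.14e-15 by edgeR's quasi-likelihood test) or 3.73-fold, which is under the fold threshold.

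Sgce (ENSMUSG00000004631.15) encodes epsilon-sarcoglycan, a membrane protein related to the dystrophin complex, and lies on chromosome 6 (4674350 to 4747207, minus strand). Its level was 64.7, 66.4, and 63.6 CPM in the control libraries, 76.6, 83.3, and 75 CPM in the treated ones, and 72.7, 76.2, and 73.1 CPM in the ECs. The treated libraries were all above the control libraries, by a log2 fold change of 0.27 (SE 0.05, FDR 9.70e-05 by edgeR's quasi-likelihood test). Sgce was thus the one gene of the 4 well-expressed ones that did not fall in the treated cells. Scaled by library size only, all genes had a median log2 fold change of 0.22, and relative to that median Plagl1 was at -2.71, Mest at -2.06, Grb10 at -1.91, and Sgce at 0.26.

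**Figure D2:**
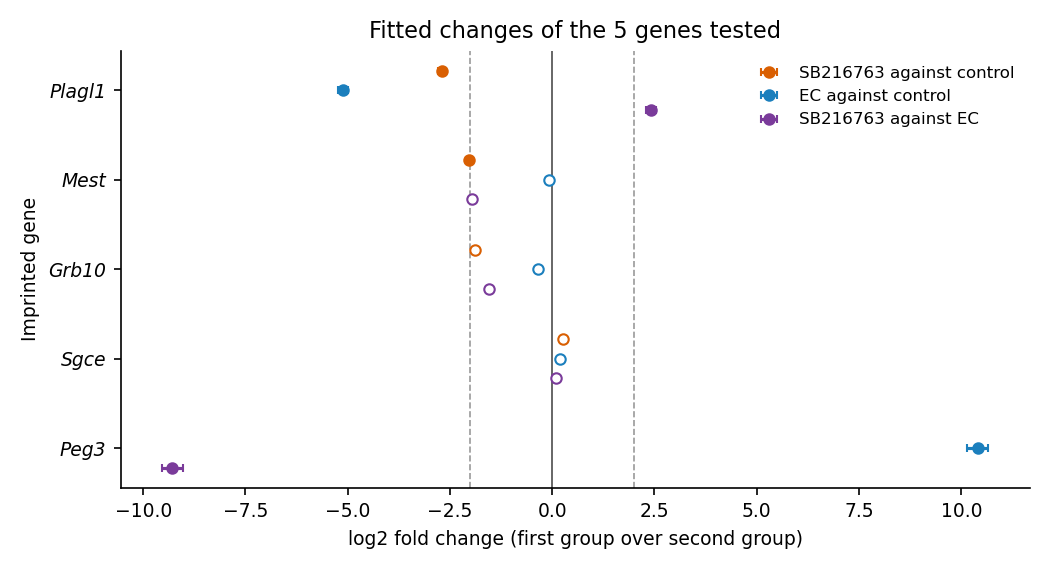
Fitted log2 fold changes with SE of the 5 imprinted genes tested, in the 3 comparisons of the groups (n = 3 libraries each). Filled points passed both thresholds, open points did not, dashed lines mark a log2 fold change of 2 in either direction, and Peg3 in SB216763 against control is left out because both groups were at the limit of the depth. Plagl1 was past the threshold in all 3 comparisons, and Mest and Grb10 were lower in the treated cells against both other groups, which share the treated libraries.

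Proliferation genes moved in the same comparison. Of 12 such genes, 11 were lower past the threshold in the treated cells, beside 5.84% of all genes tested, and their summed level went from between 1715 and 1746 CPM to between 247 and 264 CPM, beside 2214 to 2248 CPM in the ECs. Mki67, a marker of cycling cells, had a mean of 213, 20.6, and 393 CPM in the control, treated, and EC groups. The summed levels of the osteoblast and of the fibroblast and mural markers given above were also lower in the treated cells, but not every gene of these lists moved that way. Of the 8 osteoblast markers, 5 were lower past the threshold and 7 at any fold. Of the 8 fibroblast and mural markers tested, 3 were lower past the threshold, while at any fold 4 were lower and 3 higher, with a median log2 fold change of 0.04. The part of these shifts in the changes of Plagl1, Mest, and Grb10 was not tested, and in bulk libraries fewer cells of a kind and less RNA per cell cannot be told apart.

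To show the sequence in front of the 3 genes that fell, RefSeq promoter windows on GRCm38.p6 were matched by symbol. Of the 10 genes, 8 had a window, 12 windows in all, each of 250 bases before and 50 after a transcript start. H19 and Sgce had none. The stretch printed for each gene is the part of the 250 upstream bases that lies in no exon of GENCODE M21, 5′ to 3′ on the strand of the gene, and the capitals mark CG pairs, the bases at which DNA methylation is placed. Mest is shown at one of its overlapping windows with the most CG pairs (chr6:30737800-30738049, plus strand), Grb10 at its start with the most CG pairs (chr11:12037421-12037670, minus strand), and Plagl1 at its one window, where only 109 bases lie outside exons (chr10:13090582-13090690, plus strand). All 3 stretches lie within the span of the gene, in sequence that is intronic to its longer transcripts.
Mest: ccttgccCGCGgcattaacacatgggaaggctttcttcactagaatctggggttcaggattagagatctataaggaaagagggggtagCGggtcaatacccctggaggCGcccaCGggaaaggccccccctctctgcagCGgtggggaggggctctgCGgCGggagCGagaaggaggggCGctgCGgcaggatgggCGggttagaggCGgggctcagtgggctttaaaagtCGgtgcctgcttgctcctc
Grb10: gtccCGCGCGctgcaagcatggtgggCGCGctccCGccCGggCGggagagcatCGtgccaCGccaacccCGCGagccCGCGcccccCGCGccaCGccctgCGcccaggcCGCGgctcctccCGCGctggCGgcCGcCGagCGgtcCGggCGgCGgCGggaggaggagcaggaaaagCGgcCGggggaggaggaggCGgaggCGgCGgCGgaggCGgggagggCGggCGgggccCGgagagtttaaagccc
Plagl1: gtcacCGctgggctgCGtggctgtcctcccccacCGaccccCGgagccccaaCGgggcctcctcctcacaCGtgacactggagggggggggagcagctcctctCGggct
The Grb10 stretch holds 40 CG pairs, the Mest stretch 14, and the Plagl1 stretch 7. Over the whole 300-base windows the observed over expected CpG ratio was 0.973 at this Grb10 start and 0.446 at its other start, 0.696 for Plagl1, and 0.590 for this Mest window and 0.327 at the other Mest start, beside a median of 0.384 over 32851 RefSeq windows. The Grb10 value was above 92.5% of all windows. The windows were also searched on both strands for the TCF/LEF motif CTTTGAA and its variants that end in AT, TA, or TT, which 16.9% of all windows hold, for the YY1 motif GCCATNTT, which 6.05% hold, and for the PLAGL1 motif GGGGCCCC, which 1.08% hold. None of the 12 windows held a TCF/LEF or a YY1 match, and 1, that of Peg3, held the PLAGL1 letters. A lack of a match says only that these letters are not in these windows.

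The genes whose pattern over the 9 libraries was most like that of the 2 called genes were found by the smallest root mean square difference of gene-centered log2 CPM among 12518 genes with a mean of at least 1 CPM. For Mest these were Mpp6, with a difference of 0.0567 on the log2 scale, and Dkc1, with 0.0656. Mpp6 had a mean of 58.9, 15.2, and 56.4 CPM in the control, treated, and EC groups, and Dkc1 95.6, 21.5, and 83.7 CPM. For Plagl1 they were Cdon at 0.206 and Gprin3 at 0.210, with Cdon at 433, 64.5, and 15.4 CPM and Gprin3 at 32.9, 5.29, and 0.934 CPM. Among the 5 tested imprinted genes, Mest and Grb10 were the closest pair, with a difference of 0.185, and Plagl1 was 2.23 from Mest and 2.08 from Grb10.

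H19 (ENSMUSG00000000031.15), a maternally expressed noncoding RNA on chromosome 7 (142575529 to 142578143, minus strand), was too low for the filter of the fit. The control libraries held 17, 16, and 7 H19 counts, each SB216763 library 0, and 4, 3, and 4 counts in the ECs. In CPM this was 0.268, 0.291, and 0.243 in the control cells and 0.0916, 0.0914, and 0.0927 in the ECs. Every control library was above every EC library, and no treated library held a count. Against the floor of 3 counts per library, the control level was at least 3.26-fold higher than the treated level. The ratio of the pooled count rates of control cells and ECs was 2.71, with an exact 95% counting interval of 1.36 to 5.85. In a fit without the filter on low counts, the log2 fold change of treated against control cells had an FDR of 4.62e-08 and that of ECs against control cells one of 0.0106 (edgeR's quasi-likelihood test after Benjamini-Hochberg correction). For treated against control cells that fit gave Mest an FDR of 1.04e-189 by the same test, beside 2.30e-14 in the main fit. The FDR values of the 2 fits are therefore not comparable.

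Dlk1, a membrane protein that inhibits adipocyte differentiation, and Meg3, a maternally expressed noncoding RNA 77664 bases away on chromosome 12 (109541001 to 109571726), were at the limit in all 3 groups. Dlk1 had 0, 1, and 0 counts in control libraries, 1, 0, and 2 in the treated libraries, and 0 in all ECs. Meg3 had 2 counts in EC replicate 2 and 0 in the other 8 libraries. Ndn, which encodes necdin, a growth suppressor of the MAGE family on chromosome 7 (62346569 to 62350262), had 1 count in control replicate 2, 2 counts in SB216763 replicate 3, and 0 elsewhere. Zim1, a zinc finger gene on chromosome 7 (6671269 to 6696450), had 0 counts in all 9 libraries. No difference between groups was detectable for these 4 genes at this depth.

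Comparing the ECs with the control osteoblasts, Peg3 was higher and Plagl1 lower past the threshold. Of the 5 genes tested, 1 was thus higher and 1 lower, beside 13.5% and 9.87% of all genes. Peg3 passed the filter only through the ECs, so its direction here was fixed by the filter. The median log2 fold change of the 5 genes was -0.09, beside 0.01 over all genes. This comparison and the treated comparison share the control libraries, so their values are given side by side and are not independent. Plagl1 was 34.4-fold lower in the ECs (log2 fold change -5.11, SE 0.12, FDR 1.10e-15) where it was 6.47-fold lower in the treated cells. Grb10 had a log2 fold change of -0.35 (FDR 3.73e-06) in the ECs and -1.90 in the treated cells. Mest had -0.09 (FDR 0.145) in the ECs and -2.04 in the treated cells, and Sgce had 0.19 (FDR 0.00187) and 0.27. The FDR values here were given by edgeR's quasi-likelihood test after Benjamini-Hochberg correction.

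Peg3 (ENSMUSG00000002265.16), a paternally expressed zinc finger gene on chromosome 7 (6703892 to 6730431, minus strand), showed the largest contrast of the 5 between cell types. It had 541, 459, and 575 counts in the ECs, 0, 0, and 1 in the control libraries, and 1, 1, and 0 in the treated libraries. In the ECs this was 12.4, 14.0, and 13.3 CPM, a mean of 13.2 ± 0.797 (SD, n = 3). Measured against the floor of 3 counts per library, the ECs were at least 193-fold higher than the control cells and at least 161-fold higher than the treated cells. Both osteoblast groups were at or under the floor, so no fold is given between them. Usp29, a ubiquitin protease gene on the other strand, starts 146 bases from the start of Peg3. It had 0 counts in all osteoblast libraries and 0, 2, and 3 in the ECs. Zim1, 7441 bases beyond the other end of Peg3, had none. The 146 bases between Peg3 and Usp29 are printed because 1 of the genes they separate was well above the limit in the ECs and the other was not (chr7:6730432-6730577, GRCm38.p6, minus strand, CG pairs in capitals).
Peg3: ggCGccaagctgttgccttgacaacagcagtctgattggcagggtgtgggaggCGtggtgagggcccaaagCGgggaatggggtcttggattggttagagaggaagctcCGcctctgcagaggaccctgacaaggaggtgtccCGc
This stretch holds 5 CG pairs, and the whole 300-base Peg3 window had an observed over expected ratio of 0.463.

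Comparing the treated osteoblasts directly with the ECs, Plagl1 was higher and Peg3 lower past the threshold. These are 1 of the 5 genes in each direction, beside 10.3% higher and 15.0% lower of all genes tested. The direction of Peg3 was again fixed by the filter, which it passed only through the ECs. The median log2 fold change of the 5 genes was -1.55, beside -0.02 over all genes. Plagl1 was 5.32-fold higher in the treated cells than in the ECs (log2 fold change 2.41, SE 0.12, FDR 2.45e-11), between the control level and the EC level. Mest was 3.88-fold lower (log2 fold change -1.96, SE 0.06, FDR 1.38e-14) and Grb10 2.93-fold lower (-1.55, SE 0.05, FDR 2.86e-14), both below the ECs as well as below the control cells. For Sgce the difference was 0.08 with an SE of 0.05 (FDR 0.119, edgeR's quasi-likelihood test after Benjamini-Hochberg correction as for the others).

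**Figure D3:**
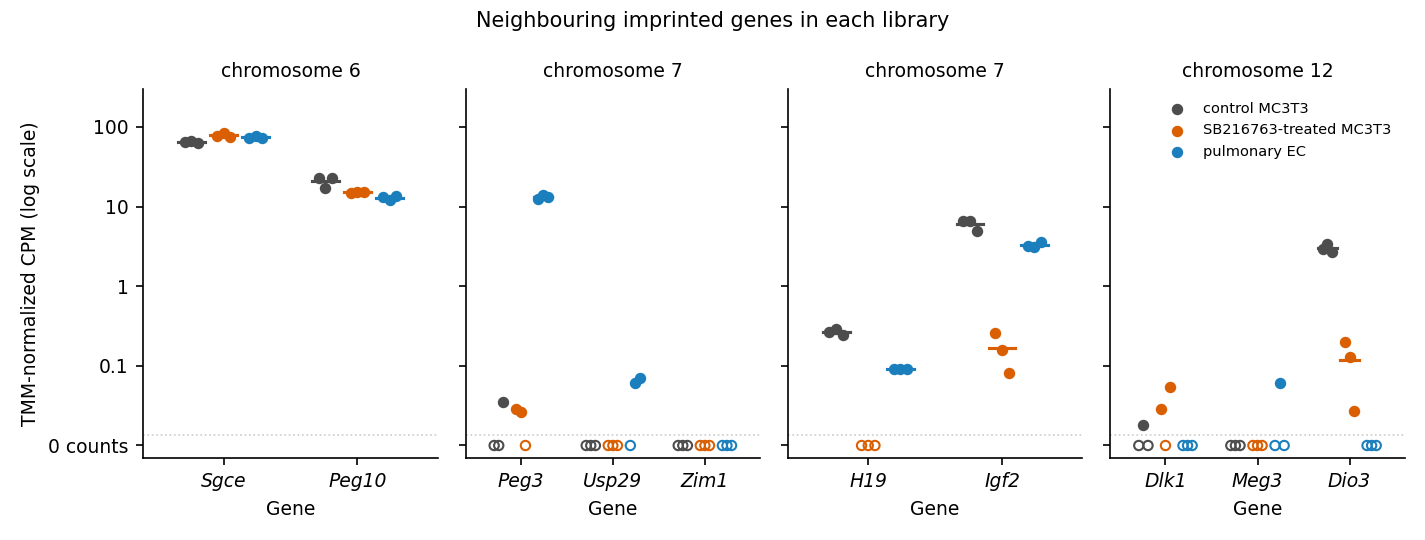
TMM-normalized CPM of imprinted genes that lie next to each other, in each library, on a log scale. Points are libraries, short lines are group means where all 3 libraries had counts, and open circles below the dotted line are 0 counts. Igf2 and Dio3 were lower in each SB216763 library than in each control library, while H19, Dlk1, and Meg3 had at most 17 counts in any library.

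Among the neighbors of these genes in their imprinted clusters, Igf2, Dio3, and Ddc fell past the threshold in the treated cells. Igf2, the growth factor 72622 bases from H19, had 424, 359, and 144 control counts, 9, 6, and 3 treated counts, and 139, 101, and 154 in the ECs. Its mean went from 6.07 ± 0.930 to 0.165 ± 0.0885 CPM after treatment, a log2 fold change of -5.21 (SE 0.23, FDR 8.12e-12 by edgeR's quasi-likelihood test), and was 3.28 ± 0.258 CPM in the ECs. Igf2 and H19 were thus both highest in the control cells, intermediate in the ECs, and lowest in the treated cells. Dio3, which inactivates thyroid hormone and belongs to the Dlk1 and Meg3 cluster, went from 3.0 ± 0.384 to 0.119 ± 0.0872 CPM (log2 fold change -4.64, FDR 1.03e-08 by the same test), with 0 counts in the ECs. Dio3 passed the filter on low counts only through the control cells, so it could be called only as lower than in them. In that cluster Rian and Rtl1 had 0 to 4 counts in every library.

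Peg10, a retrotransposon-derived gene whose start lies 98 bases from that of Sgce on the other strand, had 22.9, 17.3, and 22.9 CPM in the control libraries, 14.7, 15.3, and 15.3 CPM in the treated libraries, and 13.0, 12.2, and 13.6 CPM in the ECs. The log2 fold change after treatment was -0.47 (SE 0.09, FDR 2.52e-04 by edgeR's quasi-likelihood test), opposite in sign to that of Sgce. Ddc, the aromatic amino acid decarboxylase gene 32363 bases from Grb10, went from 12.3 ± 0.571 to 2.09 ± 0.276 CPM and was 4.91 ± 0.344 CPM in the ECs. Its log2 fold change after treatment was -2.55 (FDR 1.50e-12 by the same test), past the threshold that Grb10 just missed. Near Ndn, Magel2 had 1 count in all 9 libraries together. Mkrn3 went from 0.797 ± 0.0508 to 1.71 ± 0.361 CPM (log2 fold change 1.10, FDR 9.70e-05 by edgeR's quasi-likelihood test). Snrpn was at 0 to 3 counts in the osteoblast libraries and at 4.96 ± 0.134 CPM in the ECs, at least 72.2-fold above the control cells.

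A list of 60 other genes known as imprinted in the mouse, some of them only in certain tissues, was drawn up, of which 59 were in the table and 35 passed the filter. In treated against control osteoblasts, 2 of the 35 were higher and 5 lower past the threshold, beside the 3.81% and 5.84% of all genes given above, and 28 did not pass it. At any fold, 12 were higher, 11 lower, and 12 did not pass the FDR, beside 32.9% higher and 32.0% lower of all genes, so these shares were near the background. Of the 35, 4 (Cdkn1c, Kcnq1, Snrpn, and Peg12) had at most 3 counts in every osteoblast library and passed the filter only through the ECs, so they hold no measurable change here. The lower genes were Igf2, Dio3, and Ddc described above, Dhcr7, which catalyzes the last step of cholesterol synthesis (-3.14, from 103 ± 3.55 to 11.6 ± 0.543 CPM), and Slc38a4, an amino acid transporter (-2.43, from 2.18 ± 0.302 to 0.398 ± 0.160 CPM). The higher genes were Slc22a18, an organic cation transporter (3.0, from 0.0853 ± 0.0167 to 0.670 ± 0.159 CPM), and Airn (2.18, from 3.61 ± 0.389 to 16.1 ± 1.33 CPM). The Slc22a18 value rested on 5, 4, and 3 control counts and 23, 32, and 19 treated counts. Airn is a noncoding RNA antisense to Igf2r, the receptor that clears IGF2. Igf2r, named here after its values were seen, rose from 204 ± 51.7 to 447 ± 46.0 CPM and had 30.2 ± 1.26 CPM in the ECs. The spans of Airn and Igf2r overlap on opposite strands, but the exon bases they share were not measured. Without a stated strand setting, reads from any shared exon stretch cannot be told apart. In the ECs against the control cells, 6 of the 35 were higher and 7 lower past the threshold, beside 13.5% and 9.87% of all genes, and in treated cells against ECs 5 were higher and 7 lower, beside 10.3% and 15.0%. Asb4, with 0 to 7 counts in the osteoblast libraries, also passed the filter only through the ECs. Asb4 and the 4 genes above are among the 6 higher in the ECs and the 7 lower in treated cells against ECs, a direction that the filter fixed. Dio3 and Nespas passed the filter only through the control cells, which fixed their place among the 7 lower in ECs against control cells. The place of Dio3 among the 5 lower in the treated cells was fixed in the same way. Airn, with 1, 3, and 7 counts in the ECs, passed the filter only through the osteoblast libraries. It could thus be called only as lower in the ECs, in both comparisons with them. Dio3 and Nespas are also among the 5 higher in treated cells against ECs. There Dio3 had 7, 5, and 1 treated counts and Nespas 8, 3, and 9, with 0 in the ECs, so both groups were close to the limit of the depth.

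**Figure D4:**
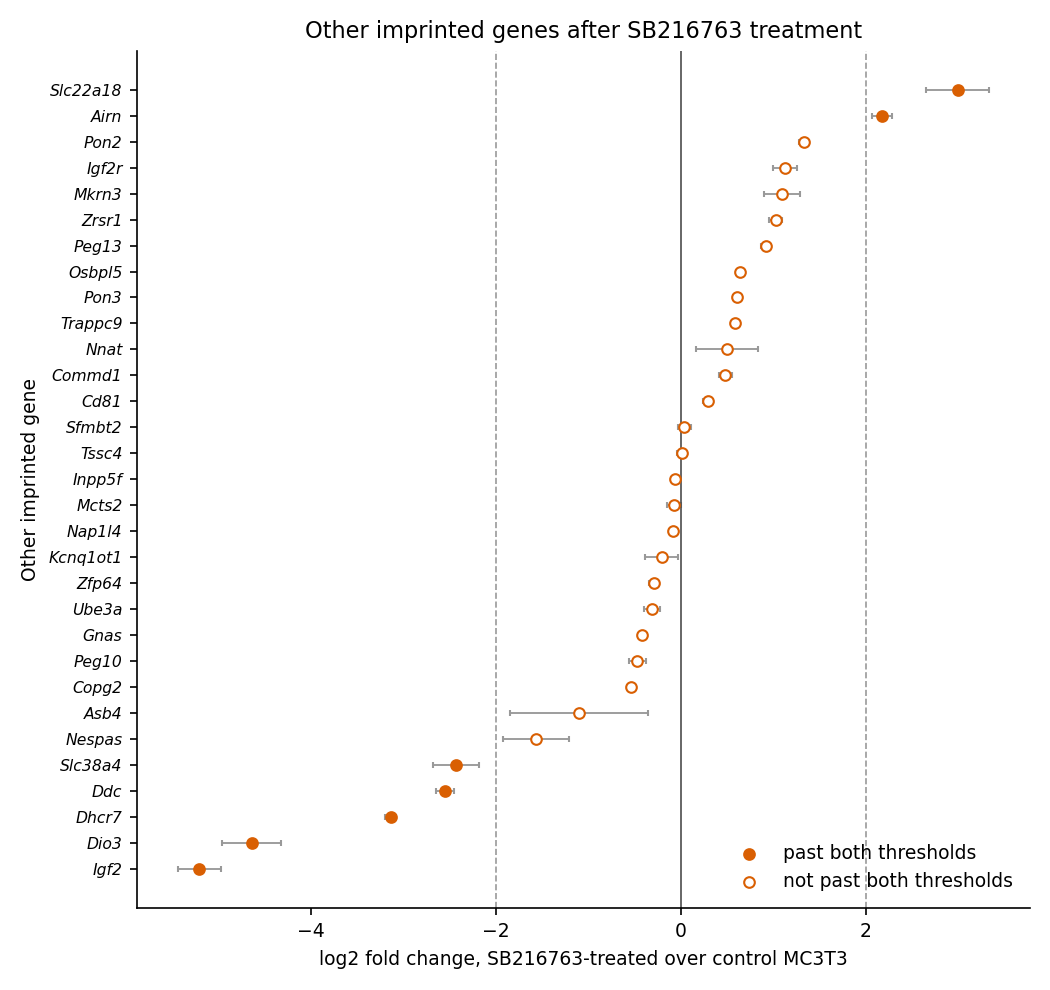
Log2 fold change with SE of SB216763-treated over control osteoblasts for 31 of the 35 tested other imprinted genes (n = 3 libraries a group). Filled points passed both thresholds, open points did not, dashed lines mark a log2 fold change of 2 in either direction, and the 4 genes at or under 3 counts in all libraries of both groups are left out. The 2 higher genes were Slc22a18 and Airn, and the 5 lower genes ranged from -2.43 for Slc38a4 to -5.21 for Igf2.

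Of 12 genes linked to the setting or upkeep of imprints, 9 were tested, and 2 were lower and 0 higher past the threshold in treated against control osteoblasts, beside 5.84% and 3.81% of all genes. At any fold 6 were lower and 1 was higher, beside 32.0% and 32.9%. Uhrf1, which brings the maintenance methyltransferase to newly copied DNA, had 175, 178, and 176 CPM in the control libraries and 18.9, 17.5, and 19 CPM in the treated libraries, a log2 fold change of -3.26 (SE 0.05, FDR 2.06e-17 by edgeR's quasi-likelihood test), with 139 ± 1.5 CPM in the ECs. Zfp57, a zinc finger protein that protects methylated imprints, went from 7.44 ± 0.542 to 1.63 ± 0.116 CPM (log2 fold change -2.18, FDR 8.94e-11 by the same test) and reached 40.9 ± 3.76 CPM in the ECs. Dnmt1, the maintenance methyltransferase, went from 119 ± 13.5 to 50.4 ± 1.55 CPM (log2 fold change -1.24, FDR 1.12e-10 by the same test), with 298 ± 6.84 CPM in the ECs. Ctcf, the insulator protein that binds the control region between H19 and Igf2, had 94.6 ± 5.48, 94.0 ± 0.906, and 98.2 ± 3.71 CPM in the 3 groups, and its log2 fold change after treatment of -0.01 (SE 0.05) had an FDR of 0.867 by edgeR's quasi-likelihood test. Uhrf1 and Dnmt1 are also known to be high in dividing cells, and the proliferation genes given above were also lower in treated than in control cells. A link between these changes was not tested. DNA methylation was not measured in these libraries.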

How the data were processed

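RNA-Seq of 9 libraries was analyzed. Read alignment and gene counting were done by the authors with STAR (2.5.3a, genome GRCm38, per the submitters' processing notes), and the deposited values are whole-number counts, not normalized, for 50686 genes. The annotation and strand setting are not given in the sources used here. Symbols were found for 50376 identifiers, and positions came from GENCODE M21.

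Counts were fitted in R 4.3.3 with edgeR 4.0.16 (filterByExpr, TMM, quasi-likelihood test on all 9 libraries, prior count 0.125), which kept 15531 genes. A gene was called at a log2 fold change of 2 or more in either direction with a Benjamini-Hochberg FDR under 0.01. SE was derived from the fold change and the F statistic. The biological coefficient of variation was 0.0554. On counts simulated for treated against control cells (15018 genes, log2 fold change 3), 196 of 200 changed genes and 0 others were called. Alternatives used limma 3.58.1 (voom), DESeq2 1.42.0, other scaling, filters, and thresholds, and fits leaving out each library.

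Replicates differed by more than sampling noise (chi-square per gene 2.85 to 104). The labels number the replicates of each group 1 to 3, and no source used here ties libraries of the same number together.

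The 10 genes and the other lists were chosen with earlier results of these data known. The text names all 10 genes, the cluster neighbors, the imprinted and maintenance genes called in treated against control cells with Dnmt1 and Ctcf, and the 2 genes nearest to each of the 10 that was called. Defining genes of the marker lists are also named. Igf2r was named after its values were seen, and Cdkn1c, Kcnq1, Peg12, Asb4, and Nespas were named to mark how the filter acted on them.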

Additional observations from a re-analysis of the deposited data

How the results depend on the processing

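In treated against control osteoblasts, the fold change of Plagl1 ranged from -2.78 to -2.49 on the log2 scale, of Mest from -2.09 to -1.84, of Grb10 from -1.94 to -1.69, and of Sgce from 0.22 to 0.47 over 17 alternatives. Plagl1 stayed past the threshold and Grb10 below the fold in all 17. Mest lost the call with scaling by library size only (-1.84), which left 1 gene lower, and without SB216763 replicate 3 (-1.98). Leaving out 1 library at a time, 1 to 2 of the 10 genes were lower and 0 higher. In ECs against control cells Mest turned to 0.038 with scaling by library size only (FDR 0.492 by edgeR), where the median of all genes was 0.13. With an FDR under 0.01 at any fold, 1 of the 10 genes was higher in treated against control cells, beside 32.9% of all genes. At any fold 2 were higher and 2 lower in ECs against control cells, and 3 were lower in treated cells against ECs. The latter count was also 3 at a log2 fold change threshold of 1, and 2 without the filter, where H19 was added. H19 also raised the count lower in treated against control cells from 2 to 3 without the filter. In that fit 1106 of all 29670 genes tested were lower past the threshold. H19 had at most 17 counts in any library, and the FDR values of that fit are not comparable with those of the main fit. Against the floor of 3 counts, its control level was at least 3.26-fold above the treated level, which falls short of showing a fold of 4. Of the other imprinted genes, 6 were higher at the threshold of 1. At any fold 12 were higher and 11 lower, beside 32.9% and 32.0% of all genes. Shares of all genes were not computed at the threshold of 1, or at any fold for the comparisons with ECs. The counts of imprinted genes at those settings therefore have no background beside them. The deviations of same-numbered libraries correlated weakly, from -0.0392 to 0.123 over the 3 pairs of groups. Between control and SB216763 libraries these correlations were 0.00286 to 0.123, and 4 of the 6 libraries correlated best with their own number. With the replicate number as a block, the counts called among the 10 genes were unchanged in all 3 comparisons (2 lower and 0 higher in treated against control cells). The counts of the other imprinted genes, refitted in treated against control cells only, were unchanged too. In treated against control cells this fit gave Mest -2.05 and Plagl1 -2.69. Dlk1, Meg3, Ndn, Zim1, and, in osteoblasts, Peg3 lay under what the depth could show. The cause of the changes under these alternatives was not tested.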
